A study of Mus musculus with 4 samples.

Results

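The transcription factors Pou5f1 (Oct4), Sox2, Nanog, Sall4 and Utf1, which are expressed in undifferentiated embryonic stem cells, were followed in differentiating mouse cells after silencing of Pnpla6. All non-control probes whose RefSeq accession in the array design belonged to these 5 genes were taken, which gave 6 of the 41174 probes: 1 each for Pou5f1, Sox2, Nanog and Utf1 and 2 for Sall4. Each probe had 1 spot per array, so no within-array repeat of a reading existed. The set was put together with the silenced-to-control ratios in view, and because the Pou5f1 arrays disagreed. The ratios are therefore given as a description, with no test, and so are all values of Pou5f1.

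The cells were D3, an established line of mouse embryonic stem cells. They were transfected with small interfering RNA against Pnpla6, which encodes the lysophospholipase neuropathy target esterase, seeded as embryoid bodies and grown in serum without leukemia inhibitory factor, so that they differentiated. Control cells were grown in the same medium, also without leukemia inhibitory factor; the labels do not say what they were transfected with. Total RNA of silenced and control cells was compared directly on 2-colour Agilent arrays, 2 at 24 h and 2 at 96 h. In replicate 1 of each time the control RNA carried Cy5 and the silenced RNA Cy3, and in replicate 2 the dyes were exchanged. The arrays lay on 2 slides, the second of which held only replicate 2 of 96 h. The labels do not say whether replicates came from separate cultures, so p-values measure the spread between these samples, which may be technical.

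As background, Pou5f1 and Sox2 bind next to each other on a composite DNA element found in many genes of undifferentiated cells, their own genes and Nanog among them. Nanog stabilises the undifferentiated state, Sall4 is a zinc-finger factor that sustains Pou5f1 expression, and Utf1 is a chromatin-bound protein whose gene is a target of Pou5f1 and Sox2. When leukemia inhibitory factor is withdrawn, cells leave this state at different speeds, and Sox2 is kept or raised on the way to neural fates while Pou5f1 and Nanog decline.

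Stretches of the promoters are shown because the members are known to be regulated through such elements. Sequences are from RefSeq on GRCm38.p6, in which 4 of the 5 genes had an entry, and windows of 250 bases before the annotated transcript start were searched on both strands. The motifs, chosen from textbook knowledge with the members known, were ATGCAAA, which is most of the octamer bound by POU factors, and the composite element, in which a SOX site and 1 free base come before those letters. The GC box bound by Sp factors was searched as GGGCGG. The core site of nuclear receptors was the last motif and was searched as AGGTCA. Capitals mark matches, on either strand.
Nanog, chr6:122707389-122707452, plus strand: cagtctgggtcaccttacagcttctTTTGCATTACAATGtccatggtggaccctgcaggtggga
Sox2, chr3:34649871-34649927, plus strand: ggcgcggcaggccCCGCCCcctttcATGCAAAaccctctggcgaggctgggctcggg
Pou5f1, chr17:35505974-35506029, plus strand: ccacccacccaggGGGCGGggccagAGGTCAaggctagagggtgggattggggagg
Utf1, chr7:139943693-139943830, plus strand: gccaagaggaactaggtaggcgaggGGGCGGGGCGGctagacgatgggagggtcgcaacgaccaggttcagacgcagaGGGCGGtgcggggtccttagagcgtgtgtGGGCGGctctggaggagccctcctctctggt

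The composite element was present in 2 of 32817 promoter windows (0.00609%), and both were the overlapping windows of the 2 annotated Nanog starts. It lay on the reverse strand, 75 to 62 bases before the first of these starts and 151 to 138 bases before the other. The Sox2 window held ATGCAAA 99 to 93 bases before the start, a motif found in 4.13% of windows. It also held 2 GC boxes, of which the stretch above shows the nearer, and the nuclear receptor motif on the reverse strand 244 to 239 bases before the start. The latter was also in the window of the first Nanog start, 248 to 243 bases before it, on the reverse strand. The Pou5f1 window held a GC box 45 to 40 bases and AGGTCA 33 to 28 bases before the start; these letters were in 32.7% and 14% of all windows. A second annotated start of Pou5f1 had no match. The Utf1 window held 4 GC boxes, the first pair of which share 1 base. These matches describe letters and not binding.

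Pnpla6 RNA was lower in silenced cells at 24 h and near the control level at 96 h. The Pnpla6 probe gave log2 ratios of silenced over control of −0.73 and −1.002 at 24 h, a mean level of 54.9% of control, and 0.12 and −0.11 at 96 h (101%). A second Pnpla6 probe gave 67.5% of control at 24 h. Of 43379 non-control spots per array, 62.5% to 68.7% were well above background in each channel. All 48 member readings (6 probes, 4 arrays, 2 channels) were well above background, none was saturated and none was marked as non-uniform. The 9 of 10 markers of undifferentiated embryonic stem cells with a probe, the members included, were above background in all groups.

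Pou5f1 gave the strongest array-to-array disagreement of the 5 genes. Its median spot intensity at 24 h was 21728.5 for silenced RNA in Cy3 and 12107 for control RNA in Cy5 on replicate 1. On replicate 2 it was 22734 for silenced RNA in Cy5 and 15148 for control RNA in Cy3. On both arrays at 24 h the silenced reading was thus the higher before normalisation, but the median of all spots was higher in Cy5 than in Cy3 on every array, and the difference on replicate 2 did not remain after loess normalisation. At 96 h the silenced RNA read 10052 in Cy3 against 17420.5 for the control in Cy5 on replicate 1. On replicate 2 it read 6122.5 in Cy5 against 14734 in Cy3. Before normalisation the silenced reading was the lower on both 96 h arrays, and the difference on replicate 1 did not remain after it. Local background was 21 to 68.5 around these spots, so every reading was at least 112 times its background.

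After normalisation the log2 ratio of silenced over control for Pou5f1 was 1.58 on replicate 1 and −0.21 on replicate 2 at 24 h. It was 0.01 on replicate 1 and −2.11 on replicate 2 at 96 h. The arrays of each time therefore did not share a value: 1 array at 24 h showed a 2.98-fold higher level in silenced cells and 1 array at 96 h a 4.32-fold lower level, while the other two were within 1.16-fold of equality. The means were 0.68 ± 1.26 at 24 h and −1.05 ± 1.497 at 96 h (SD, n = 2 arrays each), smaller than their spread. The 2 arrays of a time were dye-swapped, so this SD also holds any dye difference and is not the spread of replicates alone. The authors' deposited log ratios, converted to log2, gave 1.60, −0.25, 0.03 and −2.09 on the same arrays. The distance between the arrays of a time was 1.78 at 24 h and 2.12 at 96 h, rank 24 and rank 18 among 21751 genes, against a median distance of 0.13 and 0.14. Over all genes, 0.372% passed the limma test at 24 h (0.234% higher, 0.138% lower) and 13.4% at 96 h (6.61% higher, 6.8% lower) at an adjusted p under 0.05; nothing is read from this for the members, since the contrast chose them.

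**Figure D1:**
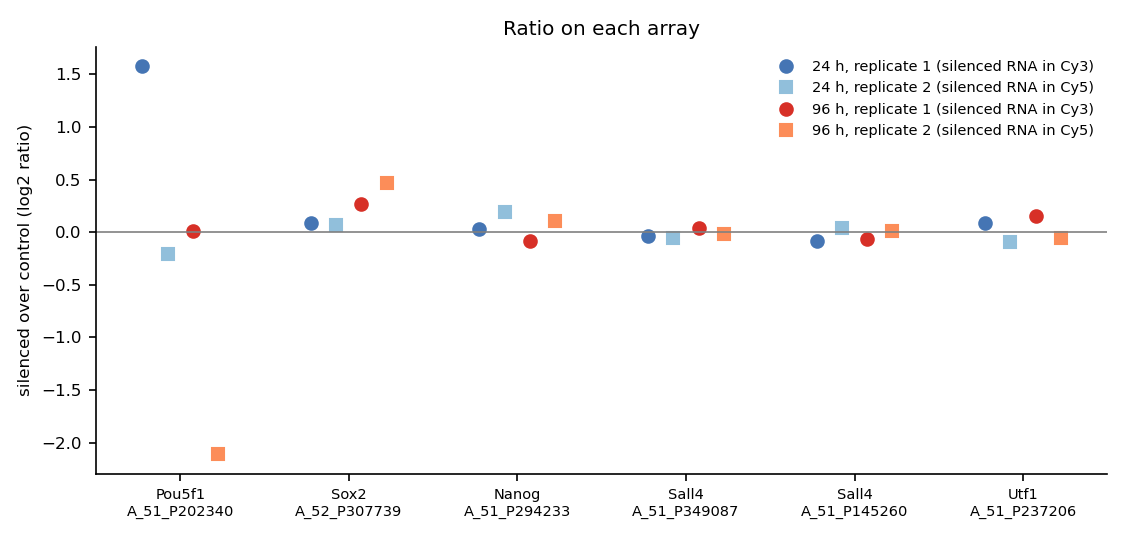
Normalised log2 ratio of silenced over control RNA (vertical axis) for each of the 6 probes (horizontal axis) on the 4 arrays; blue marks are 24 h, red and orange marks 96 h, circles replicate 1 and squares replicate 2. Pou5f1 runs from 1.58 to −2.11, whereas the other 5 probes lie between −0.09 and 0.46.

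The arrays with the extreme Pou5f1 ratios had Cy5 as the dim channel, whichever RNA it held. Written as Cy5 over Cy3, the 4 normalised log2 ratios were −1.58, −0.21, −0.01 and −2.11, so none was above 0. Pou5f1 had the lowest Cy5-over-Cy3 ratio of all 21751 genes on replicate 1 of 24 h, where Cy5 held control RNA, and again on replicate 2 of 96 h, where Cy5 held silenced RNA. On the other arrays its rank from the lowest was 902 and 10189. In the mean of log2 Cy5 over Cy3 over a dye-swapped pair, the RNA difference cancels; for Pou5f1 it was −0.89 at 24 h and −1.06 at 96 h, the lowest of all genes at both times. For the other 5 probes it lay between −0.11 and 0.10. The dim Cy5 reading did not extend to the surroundings: the 8 nearest spots had median log2 Cy5 over Cy3 of −0.04, 0.01, −0.10 and 0.03 on the 4 arrays. The part of the dye in the Pou5f1 ratios was not tested, and with 1 probe and 1 spot no second reading on these arrays bears on it.

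**Figure D2:**
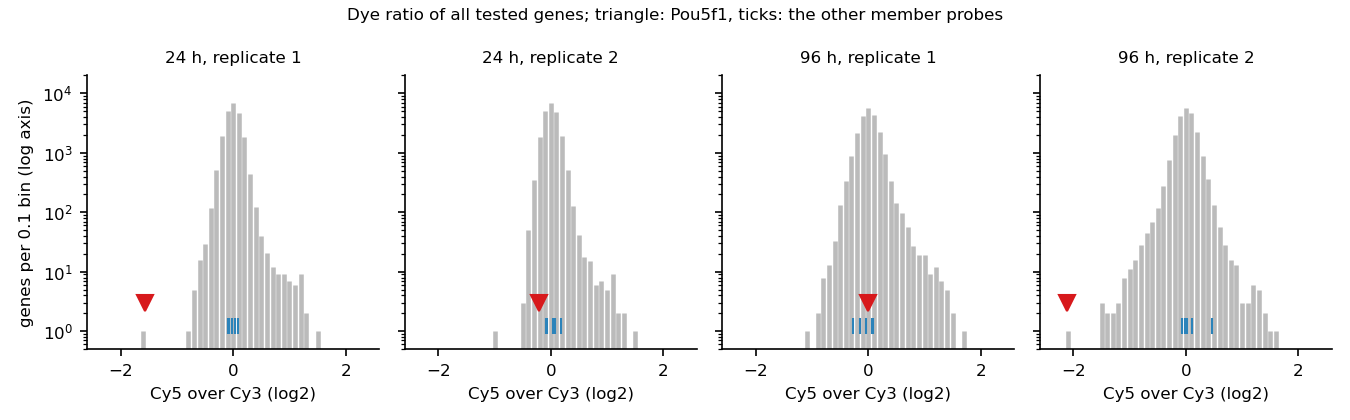
Number of genes per bin (vertical log axis) by normalised log2 ratio of Cy5 over Cy3 (horizontal axis) on each array; the red triangle marks Pou5f1 and the blue ticks the other member probes, both placed at an arbitrary height. Pou5f1 lies outside all other genes at −1.58 on replicate 1 of 24 h and at −2.11 on replicate 2 of 96 h.

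Readings of the same dye can also be compared between the arrays of a time. In Cy3, silenced minus control Pou5f1 was 0.38 at 24 h and −0.66 at 96 h on the log2 scale. In Cy5 it was 0.98 at 24 h and −1.45 at 96 h. Within each dye the silenced reading was thus the higher at 24 h and the lower at 96 h; these are the same readings in another arrangement and not further evidence. In bulk RNA, fewer cells that express a gene and less of its RNA per cell cannot be told apart, here and for all genes that follow.

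Sox2, the HMG-box partner of Pou5f1, read higher in silenced than in control cells on both 96 h arrays. Its normalised log2 level, given here and for the other genes in Cy3 first and then in Cy5, was 11.67 and 11.62 in control cells and 11.71 and 11.74 in silenced cells at 24 h. At 96 h it was 12.03 and 11.91 in control cells and 12.18 and 12.49 in silenced cells. The silenced readings were above both control readings at each time, by little at 24 h and by more at 96 h. The log2 ratio on the arrays was 0.09 and 0.07 at 24 h and 0.27 and 0.46 at 96 h, a mean of 0.36 ± 0.14 (SD, n = 2) or 1.29-fold at 96 h. The authors' deposited ratios gave 0.09, 0.01, 0.27 and 0.40. No array of either time had Sox2 below the control.

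Nanog, the homeodomain factor of the undifferentiated state, read close to the same level in every channel. Its normalised log2 level was 12.15 and 12.10 in control cells and 12.14 and 12.34 in silenced cells at 24 h. At 96 h it was 12.24 and 12.25 in control cells and 12.17 and 12.35 in silenced cells. The control and silenced ranges overlapped at both times. The log2 ratios were 0.03 and 0.19 at 24 h and −0.09 and 0.10 at 96 h, so the sign differed between the 96 h arrays.

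Sall4 was read by 2 probes, whose levels cannot be set against each other. Probe A_51_P349087, the brighter and the tested probe, gave log2 ratios of −0.03 and −0.06 at 24 h and 0.04 and −0.01 at 96 h. Probe A_51_P145260 gave −0.08 and 0.04 at 24 h and −0.06 and 0.01 at 96 h. Neither probe departed from equality by more than 0.08 on any array. The second probe was dim, with 378 to 497 units in Cy3 and 644 to 835 in Cy5, at least 9.76 times local background.

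Utf1 gave log2 ratios of 0.08 and −0.09 at 24 h and 0.15 and −0.06 at 96 h. The sign followed the dye at both times, positive where silenced RNA was in Cy3. Its means of −0.005 ± 0.12 and 0.05 ± 0.15 (SD, n = 2 each) were smaller than their spread, which also holds any dye difference. Utf1 was read at 5631 to 9568 units in Cy3 and 9633.5 to 14793 in Cy5, so these ratios did not rest on dim spots.

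**Figure D3:**
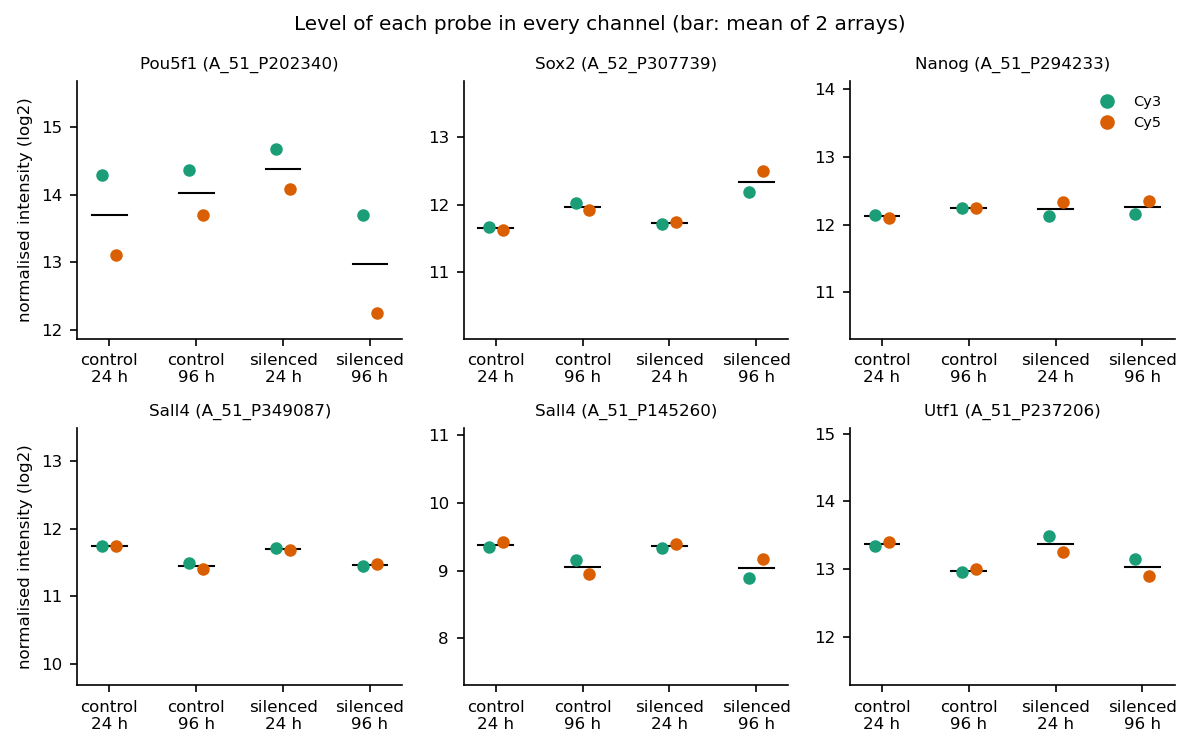
Normalised log2 intensity (vertical axis) of each probe in the 8 channels, grouped by control or silenced RNA and time (horizontal axis); green points are Cy3, orange points Cy5, and bars are means of 2 arrays. The Pou5f1 points of a group lie far apart with Cy5 lower in all 4 groups; the 96 h points of Sox2 lie above those of 24 h, and those of Sall4 and Utf1 below.

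The genes were chosen with the silenced-to-control ratios in view and with earlier results of these data known. The same channels give the change from 24 to 96 h, so its tests are not independent of the choice. This change was tested for Sox2, Nanog, Sall4 and Utf1 with limma on the single channels, adjusted over all 21751 genes. Control and silenced RNA lay on the same arrays, so both time courses share them. In control cells Utf1 and Sall4 fell, while Sox2 and Nanog did not pass. In silenced cells Utf1 fell and Sox2 rose, while Nanog and the tested Sall4 probe did not pass. Over all genes 36.2% passed in control cells (19.4% higher, 16.8% lower) and 37.2% in silenced cells (19.6% higher, 17.6% lower), so 2 of 4 members past the threshold in each is not far from the background. Whether the time courses of a member differ between silenced and control cells is the same contrast as the ratios and was not tested.

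The normalised log2 level of Utf1 in control cells was 13.34 and 13.41 at 24 h and 12.96 and 13.00 at 96 h. In silenced cells it was 13.49 and 13.25 at 24 h and 13.15 and 12.90 at 96 h. Every 96 h reading was below every 24 h reading of the same RNA. Utf1 fell by 0.40 (SE 0.10) on the log2 scale in control cells, 1.32-fold, with an adjusted p of 0.0188. In silenced cells it fell by 0.34 (SE 0.10), 1.27-fold, with an adjusted p of 0.0314. The fall was seen within both dyes in control cells, −0.38 in Cy3 and −0.41 in Cy5, and within both in silenced cells, −0.34 and −0.35. In silenced cells the call was lost with the slide as a block (−0.27, adjusted p 0.0508) and on the first slide alone, without replicate 2 of 96 h (−0.26, adjusted p 0.0650). With the authors' processed signals, centred here on the median of all non-control spots per channel, the falls were larger, −0.84 and −0.81. On that scale the median of all genes was −0.16 in control and −0.17 in silenced cells.

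Probe A_51_P349087 of Sall4 read 11.75 and 11.74 at 24 h and 11.49 and 11.41 at 96 h in control cells. It read 11.71 and 11.69 at 24 h and 11.45 and 11.47 at 96 h in silenced cells, so the times did not overlap in either RNA. Sall4 fell by 0.29 (SE 0.09) in control cells, with an adjusted p of 0.0306, and its second probe gave −0.32 with an adjusted p of 0.0499. In silenced cells the tested probe gave −0.24 (SE 0.09), with an adjusted p of 0.0645, and the second gave −0.33 with an adjusted p of 0.0462. All 8 within-dye changes of the 2 probes were negative, from −0.46 to −0.18. The probes thus gave similar sizes in both RNAs, on either side of the threshold in silenced cells. The control call of the tested probe was lost with an offset of 16 in the background correction (−0.30, adjusted p 0.0590). With the authors' processed signals it gave −0.68 in control and −0.62 in silenced cells, and both passed (adjusted p 0.00685 and 0.00852). Over all 13 alternatives, the second probe included, the silenced value ran from −0.62 to −0.22. It was −0.24 without replicate 1 of 24 h, −0.23 without replicate 2 of 24 h and −0.26 without replicate 2 of 96 h. These fits had fewer channels, kept the dye term and used the intraspot correlation estimated from all arrays.

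Sox2 rose in silenced cells by 0.61 (SE 0.13) on the log2 scale, 1.53-fold, with an adjusted p of 0.00929. In control cells the change was 0.32 (SE 0.13; 95% interval 0.01 to 0.63), with an adjusted p of 0.0972. Within the dyes the control change was 0.36 in Cy3 and 0.29 in Cy5, and the silenced change 0.47 and 0.75, so all 4 were positive. In control cells Sox2 passed without replicate 2 of 24 h (0.40, adjusted p 0.00762), without replicate 1 of 96 h (0.38, adjusted p 0.00987) and without replicate 2 of 96 h (0.27, adjusted p 0.0394), but not without replicate 1 of 24 h (0.25, adjusted p 0.0604). With the authors' processed signals, in which the median of all genes was −0.16 in control and −0.17 in silenced cells, the control change was 0.0011 (adjusted p 0.996), and the rise in silenced cells was 0.28 and did not pass (adjusted p 0.171).

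Nanog gave 0.12 (SE 0.09; 95% interval −0.10 to 0.34) in control cells and 0.02 (SE 0.09; interval −0.20 to 0.24) in silenced cells, with adjusted p of 0.365 and 0.895. Both intervals include 0, so a change of Nanog of this size was not detectable with 2 arrays per time.

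For Pou5f1 the time changes are given without a test. In control cells the log2 level went from 14.30 to 14.36 in Cy3 and from 13.11 to 13.70 in Cy5, changes of 0.06 and 0.59. In silenced cells it went from 14.68 to 13.71 in Cy3 and from 14.09 to 12.25 in Cy5, changes of −0.98 and −1.84. The control changes were upward and the silenced changes downward within each dye. The mean silenced change was −1.41 ± 0.61 and the mean control change 0.33 ± 0.37 (SD, n = 2 within-dye changes). With the authors' processed signals the control change was −0.03, where the median of all genes shifted by −0.16; it was 0.52 with the slide as a block and 0.21 without replicate 1 of 96 h.

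**Figure D4:**
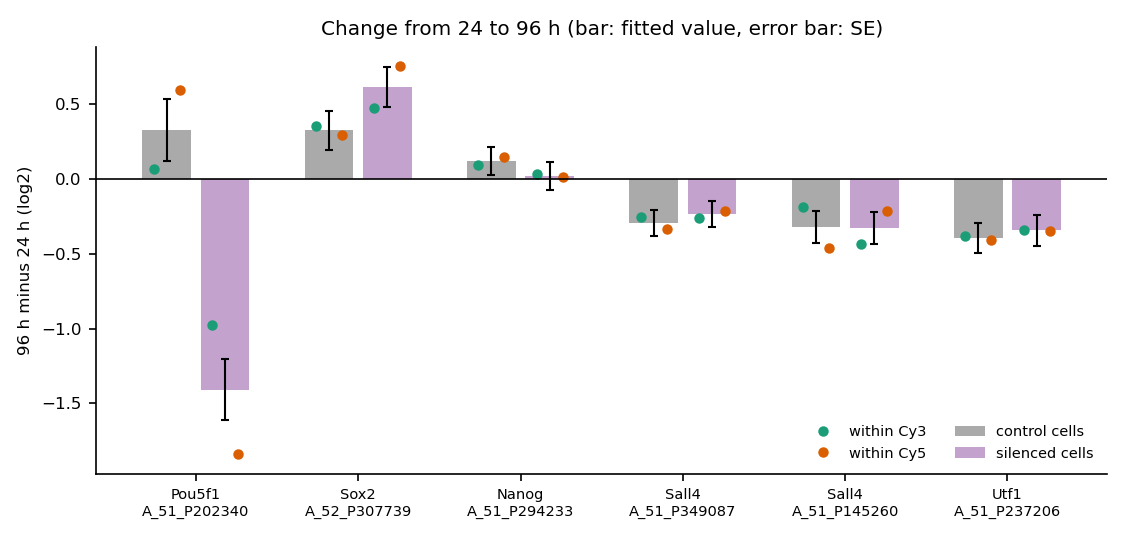
Change from 24 to 96 h in log2 units (vertical axis) for each probe, in control cells (grey bars) and silenced cells (purple bars); bars are fitted values, error bars standard errors, and points the changes within Cy3 (green) and Cy5 (orange). All points of Sall4 and Utf1 are negative and all of Sox2 positive, while Pou5f1 is positive in control cells and negative in silenced cells.

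The genes most like each member were taken by Pearson correlation over the 8 normalised channels after removal of each dye's mean, among genes with a standard deviation of at least 0.5 times the member's. The channels share arrays, so these are descriptions. Pou5f1 was most like H1f5, a linker histone (r = 0.93), Mdfi, an inhibitor of myogenic factors (0.91), and Ube2j1, a ubiquitin-conjugating enzyme (0.87). The pick used the same channels, so a likeness of their arrays to those of Pou5f1 is built into it. The log2 silenced-to-control ratios were 0.55, 0.03, −0.38 and −1.03 for H1f5 and 0.48, −0.18, −0.14 and −1.53 for Mdfi. For Ube2j1 they were −0.22, 0.26, −0.62 and −0.44. The mean log2 Cy5 over Cy3 was −0.26 at 24 h and −0.33 at 96 h for H1f5. For Mdfi it was −0.33 and −0.69, the latter second lowest of all genes at 96 h. Dppa5a, a stem cell marker outside the members, had such means above 0, 1.03 at 24 h and 1.05 at 96 h (rank 15 and 18 from the highest). Sox2 was most like Mylip, Kndc1 and Rtn1 (0.99 each), Nanog like Scai (0.96), Rnf215 (0.95) and Olfr1065 (0.95), Sall4 like Foxo4 (0.999), Mrpl9 (0.998) and Tbc1d2b (0.998), and Utf1 like Dot1l (0.998), Raver1 (0.997) and Calcoco1 (0.996). Among the members, Sall4 and Utf1 ran together (0.88) and Sox2 ran opposite to Utf1 (−0.82), Sall4 (−0.78) and Pou5f1 (−0.74). Nanog and Pou5f1 gave −0.03.

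Other genes of the network were read from lists of related genes. As background for the counts over time here and in the next paragraph, 19.4% of all genes passed as higher and 16.8% as lower in control cells. In silenced cells the shares were 19.6% and 17.6%. The counts of the lists were not tested against these shares. In the naive and core network list, 22 of 24 genes were tested; in control cells 2 were higher at 96 h and 6 lower, with a median change of −0.15 against 0.00 for all genes, and in silenced cells 1 was higher and 9 lower, with a median of −0.09. Klf5, a Krüppel-like factor, fell by 1.67 (SE 0.09) in control cells and by 1.54 in silenced cells. Dppa2 and Trim28, both chromatin-associated regulators, fell by 0.99 and 0.79 in control cells and by 1.32 and 0.69 in silenced cells. Dppa3, which protects methylation in the early embryo, rose by 1.99 (SE 0.15) in control cells and by 1.88 in silenced cells. The other riser in control cells was Lin28b (0.39), named after its value was seen. In the list of Oct4 and Sox2 composite-element targets, 8 of 10 genes were tested. In control cells 4 fell, namely Gdf3 (−0.88), Zfp42 (−0.59), Lefty2 (−0.56) and Spp1 (−0.55), and 1 rose, Fbxo15 (0.41). In silenced cells Gdf3 fell by 0.75, Zfp42 by 0.31 and Lefty2 by 0.32, Fbxo15 rose by 0.78, and Spp1 did not pass (−0.08, adjusted p 0.653). The silenced call of Lefty2 was lost with no background subtraction (adjusted p 0.0620) and with offset 16 (adjusted p 0.0581), and that of Zfp42 with offset 16 (adjusted p 0.0674) and without replicate 2 of 96 h (−0.25, adjusted p 0.0589). Spp1 passed in silenced cells with the authors' processed signals (−0.47, adjusted p 0.0439). Those signals also gave Dppa3 3.32 in control and 3.12 in silenced cells and Spp1 −0.94, Zfp42 −0.95 and Lefty2 −0.89 in control cells, with Zfp42 at −0.63, Lefty2 at −0.61 and Trim28 at −1.08 in silenced cells.

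Among the relatives of the members, 7 of 9 were tested, and 2 rose and 2 fell in control cells. Sall2 rose by 2.35 (SE 0.12) and Sall3 fell by 3.33 (SE 0.17) while Sall4 fell by 0.29, so members of the Sall family moved in opposite directions. Pou3f1, the POU factor of later epiblast and neural cells, rose by 0.71 (SE 0.10) in control cells, and Sall1 fell by 0.39. In silenced cells Sall2 rose by 1.57 and Sall3 fell by 3.28, whereas Pou3f1 (0.16, adjusted p 0.240) and Sall1 (−0.19, adjusted p 0.265) did not pass. Sall1 in silenced cells rested on single arrays, at −0.03 (adjusted p 0.766) without replicate 1 of 24 h and −0.34 (adjusted p 0.00494) without replicate 2 of 24 h, and its control call was lost with offset 16 (adjusted p 0.0505). On the scale of the authors' processed signals Sall3 gave −5.48 in control and −5.40 in silenced cells, Sall1 −0.65 and −0.41, and Pou3f1 0.43 in control cells. In the list of formative epiblast and primitive streak genes, 11 of 14 were tested, and 6 rose and 2 fell in control cells. Fgf5, a growth factor of the primed epiblast, rose by 2.79 (SE 0.20), Wnt3 by 1.21 (SE 0.09) and Otx2 by 1.08 (SE 0.11), and Fst fell by 1.47 (SE 0.15). In silenced cells 3 rose and 1 fell, with Fgf5 at 2.05 and Otx2 at 0.90. The Wnt3 probe at 24 h and the Fst probe at 96 h were not well above background on every silenced array. Wnt3 gave 3.38 and Fst −3.49 in control cells with the authors' processed signals. Of the genes that repress or modify Pou5f1 during differentiation, 5 of 7 were tested. In control cells Ehmt2, the G9a histone methyltransferase, fell by 1.32 (SE 0.12), Dnmt3l by 0.89 (SE 0.11), and Nr6a1, a nuclear receptor that represses Pou5f1, rose by 0.56 (SE 0.14, adjusted p 0.0146). In silenced cells Ehmt2 fell by 1.19 and Dnmt3l by 0.76, while Nr6a1 gave −0.03 (adjusted p 0.889) and Lhx2 rose by 0.41. The control call of Nr6a1 was lost with the authors' processed signals (0.43, adjusted p 0.0525), and in silenced cells Nr6a1 passed as a fall without replicate 1 of 24 h (−0.23, adjusted p 0.0343) and gave 0.17 (adjusted p 0.104) without replicate 2 of 24 h.

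**Figure D5:**
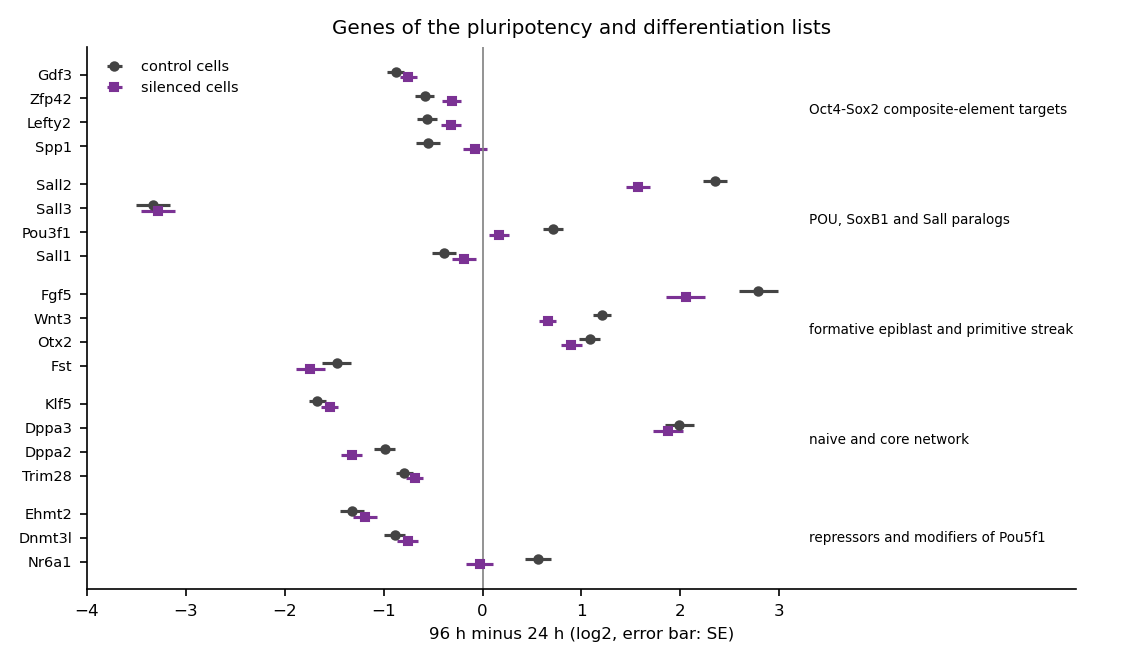
Change from 24 to 96 h in log2 units (horizontal axis) of the named genes of each list (vertical axis), in control cells (black circles) and silenced cells (purple squares), with standard errors. Sall3 and Klf5 fall in both, Fgf5, Sall2 and Dppa3 rise in both, and Nr6a1 sits at 0.56 in control and −0.03 in silenced cells.

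Between silenced and control cells at 96 h, 10 of the 22 genes in the naive and core network list were higher and 4 lower (median 0.10), against 6.61% and 6.8% of all genes. Among the higher genes, Dppa5a (−0.84 and 1.26), Nr0b1 (−0.01 and 0.62) and Mycn (−0.06 and 0.59) had ratios of opposite sign on the 96 h arrays. Their calls came from the fit with the dye term. The lower genes were Lin28a, Lin28b, Rif1 and Dppa2. Of the 8 composite-element targets 4 were higher and none lower: Spp1 (0.62, SE 0.06), Lefty2 (0.39), Fbxo15 (0.31) and Zfp42 (0.30). Of the 11 epiblast genes 1 was higher (Dnmt3a, 0.26) and 4 were lower: Fgf5 (−0.69), Dnmt3b (−0.64), Wnt3 (−0.64) and Pou3f1 (−0.63). Pou3f1 and Sall2 (−0.65) were the lower relatives, and Nr6a1 (−0.42) the lower modifier, with Lhx2 (0.21) higher. At 24 h 1 list gene passed, Rif1 (0.28), against 0.372% of all genes. The lists were chosen with earlier results of these data known, and this contrast was in view when the members were chosen. Their counts beside the shares of all genes are therefore a description and not independent evidence. These counts rest on the fit of the 4 arrays with the dye term. Far fewer of all genes passed at 96 h with all 4 arrays and no dye term. The fits with 1 array left out had no dye term either, so they cannot separate the array from that term. With the authors' log ratios 0 passed at 96 h, where 3846 had an unadjusted p under 0.05.

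Markers of other cell types changed over the same interval. The summed level of 7 tested trophoblast markers was 4970 to 5430 at 24 h and 35900 to 43200 at 96 h, led by Krt18 and Tfap2c. Cdx2, also in this sum, went the other way (−0.42 in control and −0.39 in silenced cells). At 96 h Cdx2 was not well above background on both arrays of either RNA. Elf5 and Gata3, which define trophoblast, were not well above background on both arrays of any group. The sum of 7 fibroblast markers went from 1760 to 1850 at 24 h to 2700 to 3200 at 96 h, and Col3a1, Lum and Postn were likewise not well above background on both arrays of any group. The sum of 11 endoderm markers went from 940 to 965 at 24 h to 1200 to 1210 in control and 1420 to 1450 in silenced cells at 96 h. The sum of 8 neural markers was 2490 to 2600 at 24 h, and 2780 to 2840 in control and 2410 to 2550 in silenced cells at 96 h. These 2 sums do not stand for their members. Between silenced and control cells at 96 h, 2 neural markers passed as lower, Nes (−1.02) and Zic2 (−0.40), and none as higher. Over time in silenced cells Hes5 rose (1.01), while Nes (−0.82) and Pax6 (−0.27) fell. Of the endoderm markers, 2 passed as higher in silenced cells at 96 h, Cubn (1.05) and Amn (0.29), and none as lower. Fabp7 and Ttr were not well above background on both arrays of any group. The sum of 7 mesoderm markers was lower at 96 h in control cells, from 12400 to 15000 at 24 h against 8290 to 10300. In silenced cells the ranges overlapped, 11600 to 15900 against 8290 to 12100. The mesoderm sum does not stand for its members, since in each RNA 2 passed as higher and 2 as lower. In control cells Hand1 (0.62) and Tbx6 (0.59) rose, while Kdr (−0.72) and Tcf15 (−0.61) fell. The part of these cells in the changes of the members was not tested.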

How the data were processed

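RNA of silenced and control D3 cells was read on 4 Agilent 2-colour arrays, 2 per time. Spot intensity values were extracted with Agilent Feature Extraction 10.7, per the submitters' processing notes and file headers. The authors' deposited log10 ratios, the same in the scanner files and the series table (largest difference 4.967e-06), and their processed intensity signals served as alternatives; every array's log10 ratios in the series table had a median of 0. Median spot and local background intensities were corrected with normexp (offset 50) and normalised by loess within arrays in limma 3.58.1 (R 4.3.3), with the 1639 control spots at weight 0 and 1 non-uniform spot left out. Values are log2. Probes well above background on both arrays of at least 1 RNA group were kept (28079 of 41174), and the brightest probe stood for each of 21751 genes; 24375 probes had a gene name. Silencing was fitted over the 4 ratios with a term for dye orientation, which equals the replicate number; time courses were fitted on single channels after Aquantile normalisation with a dye term and an estimated intraspot correlation of 0.90. P-values were adjusted by Benjamini-Hochberg. A number of 2 arrays per group limits the precision.

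On simulated data for the silenced contrast at 96 h (21751 genes, 200 changed) 100% of changes of 0.5 and of 1 were recovered. For the control time course 46% and 94% were. The simulated errors were drawn from the spread that the fits estimated. These shares therefore hold only where the data follow the fitted model, and they do not measure the power in the real data. At a simulated intraspot correlation of 0.5 the estimate was 0.90, so a fixed 0.5 was added as an alternative after the data were seen. Same-numbered arrays deviated together over genes (r = 0.70); with 2 numbers and no label this is only a shared number and dye.

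All member probes, Pnpla6, the 3 genes most like each member and, from each list, up to 4 genes that passed in control cells by smallest p were named, or up to 2 where none passed; others are named where a count was small. Members and lists were chosen with earlier results of these data known. Promoter sequences were taken from RefSeq. Probe sequences and the places of the probes in the genome were not used here. Spot positions on the array served to find the nearest spots. Alternatives concerned background correction, filter, normalisation, dye term, slide and each array left out.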

Additional observations from a re-analysis of the deposited data

How the results depend on the processing

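Counts of genes that differed between silenced and control cells depended on the processing. At 24 h 81 genes passed; 42 passed with median centring (20 higher, 22 lower, against 51 and 30) and 0 with the authors' log ratios (1571 with an unadjusted p under 0.05), on the first slide only (193), with no replicate block (216) or with offset 16 (1615), and leaving out each array in turn gave 0 (193 to 296). At 96 h 2916 passed; 1798 passed with median centring (1126 higher, 672 lower, against 1437 and 1479), 1016 with offset 16, 106 with no replicate block, 35 on the first slide only and 0 with the authors' log ratios (3846 unadjusted), and leaving out each array gave 29 to 114. The fits with 1 array left out and on the first slide only also had no replicate block (dye term). Their counts therefore cannot separate the missing array from that term. No background subtraction and no filter kept both counts within 1.5 times. The counts over time stayed between 7415 and 11692 in control cells and between 7636 and 12131 in silenced cells. With the authors' processed signals as centred here, the median of all genes was −0.16 in control and −0.17 in silenced cells. In control cells 3328 were then higher and 5846 lower (4223 and 3657 otherwise), and in silenced cells 3398 and 5951 (4264 and 3834). Nanog's small change turned sign with processed signals (−0.24 in control, −0.33 in silenced cells) and, in silenced cells, with quantile normalisation (−0.00089), the slide as a block (−0.025), without replicate 1 of 24 h (−0.035) and without replicate 2 of 96 h (−0.032), leaving out each array giving −0.035 to 0.075. In silenced cells Nr6a1 turned with the slide as a block (0.0037), without replicate 2 of 24 h (0.17) and without replicate 2 of 96 h (0.040), leaving out each array giving −0.23 to 0.17, Pou3f1 with processed signals (−0.18) and Spp1 without replicate 1 of 96 h (0.018). With no replicate block Sox2 passed in control cells (0.32, limma adjusted p 0.0279) and Sall4 in silenced cells (−0.24, adjusted p 0.0286), as both did with an intraspot correlation of 0.5; the block ended no call of another member. Utf1 in silenced cells did not pass with offset 16 (adjusted p 0.0566). The cause of these differences was not tested. All member spots were at least 9.76 times local background.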
